A study of Zea mays with 18 samples.

Results

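The genes described here are the loci named for carotenoid synthesis, for the synthesis, breakdown and action of abscisic acid (ABA), and for the seed mutants known as viviparous, yellow endosperm, lemon white and white seedling, in kernels of 2 maize inbred lines. They were chosen by name alone, as every locus other than an intron entry whose gene name held 1 of 14 words (phytoene, carotene, carotenoid, lycopene, zeaxanthin, neoxanthin, abscisic, viviparous, geranylgeranyl, homogentisate, tocopherol and the 3 seed phenotypes). The rule found 50 of the 77704 loci in the table, and 42 of them were among the 29191 loci whose mean over the 18 libraries was above 10 normalized counts and which were therefore tested. RNA was sequenced from whole kernels of DAN3130, an inbred line derived from an American hybrid, and of JI63, an inbred line from a double-cross pedigree, both of the NSS subpopulation and grown in the field. The 6 groups were DAN3130 kernels on day after pollination (DAP) 24, on DAP 35 and at maturity, and JI63 kernels at the same 3 stages, with 3 libraries each and no treatment named in the labels. The study set out to relate gene expression to folate accumulation, and it made 7 comparisons, each later stage against the earlier one within a line and DAN3130 against JI63 at each stage. The labels call the 3 samples of a group biological replicates but the methods also speak of pooled RNA, so the p-values measure the spread between these libraries, which may in part be technical.

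Carotenoids are made in plastids from geranylgeranyl pyrophosphate, which itself comes from the methylerythritol phosphate pathway. Phytoene synthase opens the branch, desaturases and isomerases turn phytoene into lycopene, cyclases and hydroxylases give lutein and zeaxanthin, and epoxidised carotenoids are cleaved by 9-cis-epoxycarotenoid dioxygenases (NCED) in the committed step towards ABA. ABA keeps the maize embryo from germinating on the ear, so that mutants lacking it or failing to respond to it are viviparous, and 8'-hydroxylases remove the hormone again.

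The libraries held 9428728 to 133264978 reads in loci, and the deposited values were these reads divided by a scaling factor per library. Replicates were closest on DAP 24 (residual SD 0.61 in DAN3130 and 0.65 in JI63, on the log2 scale over all tested loci) and furthest apart in mature DAN3130 kernels (1.97). Kernel identity was checked on marker loci. The summed level of 9 embryo marker loci was 409887 to 531102 on DAP 24, then 1232511 to 1410348 by DAP 35 and finally 1440860.4 to 3644740.4 at maturity in DAN3130, and 792058 to 837493, 1164077 to 3055310.3 and 3329353 to 4883392 at these stages in JI63, with 1 of the 9 loci at 0 in JI63 on DAP 24 and 2 in each other group. The summed level of 21 starchy endosperm loci was 1298931 to 1646228, 659704 to 767937 and 5469.6 to 28245 in DAN3130 and 549592 to 1193891, 167152 to 179111 and 4182 to 7186 in JI63 over the 3 stages. JI63 DAP 35 replicate 2 and DAN3130 mature replicate 3 had the highest embryo sum of their groups, and each call described here that was lost without 1 of them is given as such.

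**Figure D1:**
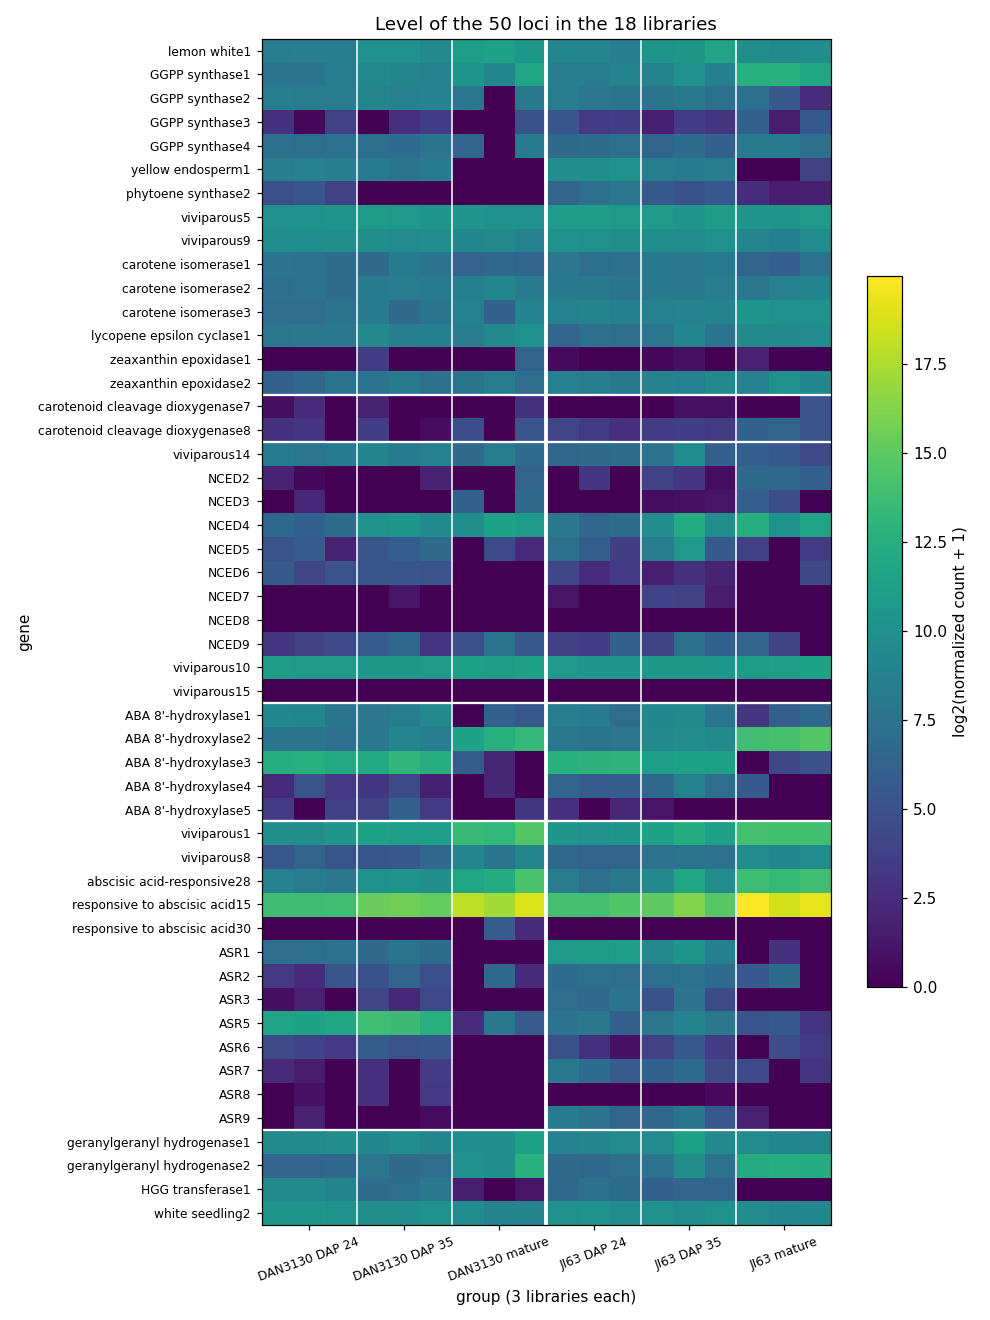
Level of all 50 loci (rows, ordered by role, white lines between roles and between groups, HGG for homogentisate geranylgeranyl) in the 18 libraries (columns, 3 per group), as log2 of the normalized count plus 1. The row of responsive to abscisic acid15 is the brightest in every library, viviparous15 and NCED8 are dark throughout, and yellow endosperm1, ABA 8'-hydroxylase3 and several abscisic acid stress ripening (ASR) rows darken in the mature columns while ABA 8'-hydroxylase2, viviparous1 and geranylgeranyl hydrogenase2 brighten.

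Expressed per kilobase of the longest assembled isoform, so that genes could be compared, the highest locus in every group was responsive to abscisic acid15, with group means of 17798, 56466 and 388739 normalized counts per kb on DAP 24, DAP 35 and at maturity in DAN3130 and 23767, 56859 and 854377 in JI63. Of the carotenoid pathway genes, viviparous5, the phytoene desaturase, had 6 group means of 231 to 383 normalized counts per kb, while yellow endosperm1, a phytoene synthase, had means of 0 to 588, phytoene synthase2 of 0 to 62.8 and carotene isomerase3 of 25.0 to 185. At the other end, 8 loci had a mean of 10 or less and were not tested. Of these, viviparous15, a molybdenum cofactor gene, and NCED8 had no read in any library. The remaining 6 (NCED7, ABA 8'-hydroxylase5, ASR8, zeaxanthin epoxidase1, carotenoid cleavage dioxygenase7 and responsive to abscisic acid30) had a highest single value of 86.4 normalized counts, in 1 mature DAN3130 library for zeaxanthin epoxidase1. Of the 42 tested genes, 34 were called in at least 1 of the 9 contrasts and 8 in none (GGPP synthases 2, 3 and 4, carotene isomerase2, carotenoid cleavage dioxygenase8, NCED9, ASR2 and geranylgeranyl hydrogenase1, where GGPP is geranylgeranyl pyrophosphate).

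Between DAP 24 and DAP 35, 7 of these genes were called in DAN3130 and 5 in JI63, most of them higher on DAP 35. In DAN3130, 5 of 42 were higher on DAP 35 (11.9%, against 4.41% of all tested loci) and 2 were lower (4.76%, against 2.14%), and in JI63 5 were higher (11.9%, against 4.27%) and 0 lower (against 4.82%), at an adjusted p under 0.05 in limma. Called in both lines, and higher in both, were NCED4, lemon white1 and viviparous1, which made up 42.9% of the DAN3130 calls and 60.0% of the JI63 calls. How far the calls of all tested loci were shared by the lines was not counted. The median log2 change of the 42 genes was 0.40 in DAN3130, where that of all loci was -0.04, and 0.57 in JI63, where it was 0.00. The 3 DAP 35 libraries lay wholly above the 3 DAP 24 libraries for 16 genes in DAN3130 and 14 in JI63, and wholly below for 3 and 5, and 12 and 14 of those genes were not called. How many of all tested loci were apart in this way was not counted, so these numbers cannot be read as particular to the set. With any 1 library left out, 2 to 5 genes were called in DAN3130 and 3 to 5 in JI63, and with the 2 libraries high in embryo markers left out together 10 (8 higher and 2 lower) and 5 (5 higher and 0 lower). More genes were called with only the 12 immature libraries in the fit, 13 in DAN3130 (10 higher and 3 lower) and 11 in JI63 (7 higher and 4 lower), and with a variance per group, 14 (12 higher and 2 lower) and 13 (9 higher and 4 lower).

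From DAP 35 to maturity the set split into genes that rose and genes that fell. In DAN3130, 10 of 42 genes were higher in mature kernels (23.8%, against 19.2% of all tested loci) and 14 were lower (33.3%, against 31.5%). In JI63, 11 were higher (26.2%, against 17.8%) and 17 lower (40.5%, against 27.8%). Of these, 20 genes were called in both lines (83.3% of the DAN3130 calls and 71.4% of the JI63 calls), 8 higher in both, 11 lower in both and lemon white1 in opposite directions. The shared part of the calls over all tested loci was not counted, so this overlap may be general. The median log2 change was -0.33 in DAN3130 and -0.78 in JI63, and over all loci it was -0.43 and -0.36. These medians moved with the scaling. With libraries set to equal totals the median of all loci was -0.86 in DAN3130 and -1.18 in JI63, the members split into 7 higher and 16 lower in DAN3130 and 6 higher and 20 lower in JI63, and the share of all called loci that were higher was 25.9% and 16.3%, in place of 37.9% and 39.0%. Changes of less than about 1 on the log2 scale between DAP 35 and maturity are therefore given with the value under equal totals where that ended the call. Under edgeR, viviparous10 and NCED5 were not called in DAN3130 and ASR7 and NCED2 not in JI63, and DESeq2 gave NCED2 no adjusted p. With a variance per group 12 genes were called in DAN3130 (5 higher and 7 lower), and lemon white1, GGPP synthase1, viviparous5, viviparous9, viviparous10, carotene isomerase1, NCED3, NCED5, abscisic acid-responsive28, ASR3, ASR6 and white seedling2 were not. With the 2 libraries high in embryo markers left out, 20 genes were called in DAN3130 and 26 in JI63, with viviparous9, viviparous10, carotene isomerase1, GGPP synthase1, NCED3 and NCED5 among those lost in DAN3130 and ABA 8'-hydroxylase1, ASR7 and carotene isomerase3 in JI63. In a fit of only the groups compared, 16 genes were called in DAN3130 and 22 in JI63. Lost there in DAN3130 were ABA 8'-hydroxylase1, carotene isomerase1, GGPP synthase1, NCED3, NCED5, viviparous5, viviparous9 and white seedling2. Lost in JI63 were ABA 8'-hydroxylase1, ABA 8'-hydroxylase4, ASR7, lemon white1, lycopene epsilon cyclase1, viviparous9, viviparous10 and viviparous14.

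**Figure D2:**
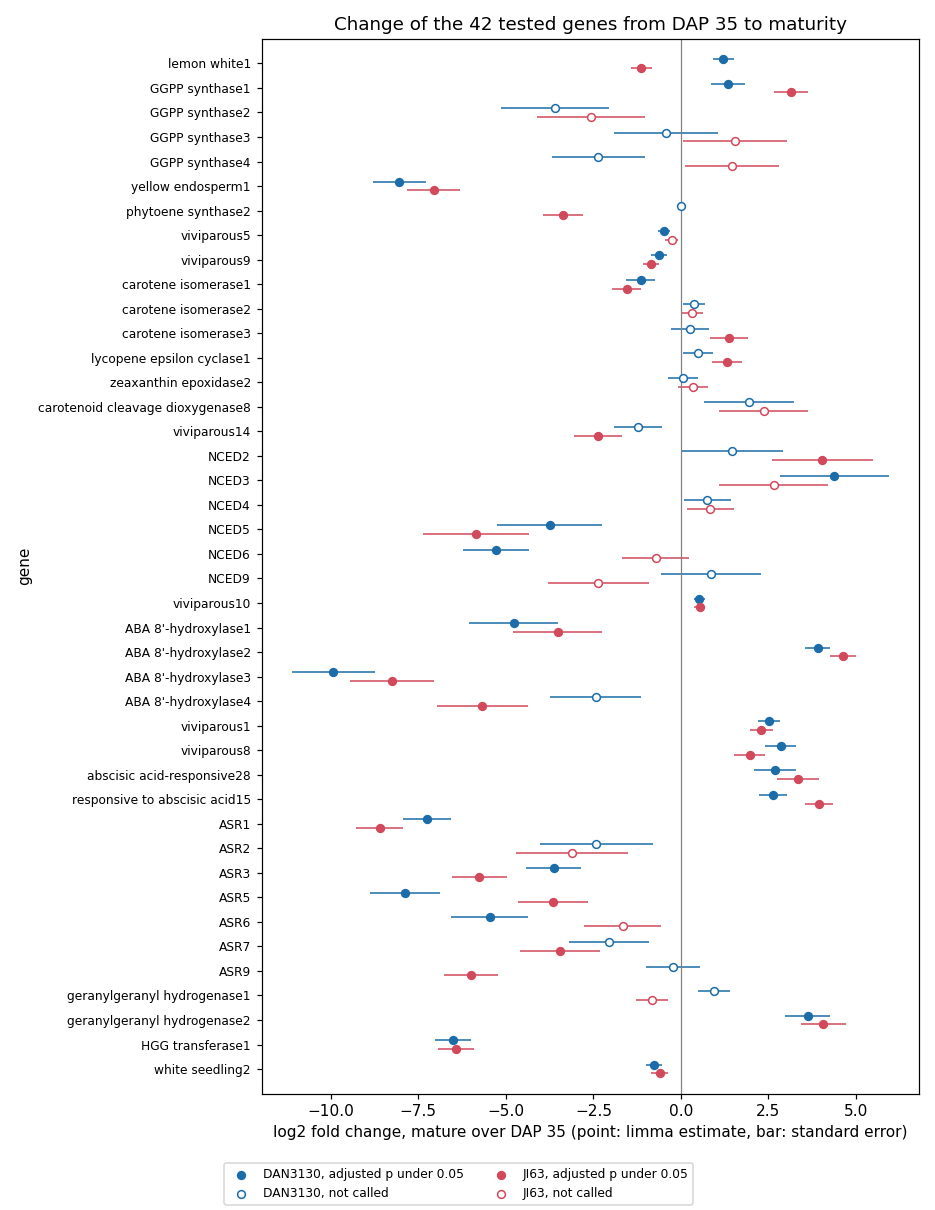
Log2 fold change of mature over DAP 35 kernels for the 42 tested genes (limma estimate, bar: standard error), DAN3130 in blue and JI63 in red, filled where the adjusted p was under 0.05. Most genes lie on the same side of 0 in both lines, from -9.93 for ABA 8'-hydroxylase3 in DAN3130 to 4.63 for ABA 8'-hydroxylase2 in JI63, and lemon white1 lies on opposite sides.

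Among the genes that supply the pathway, lemon white1, the reductase of the last step of the methylerythritol phosphate pathway (chromosome 1, 277726512 to 277729921, in the B73 genome v4.40 as for every position given), changed at each step in each line. In DAN3130 it had 356, 370.0 and 369.5 normalized counts on DAP 24, 1072, 1085 and 679 on DAP 35 and 2209, 2692 and 1650.0 in mature kernels. In JI63 the values were 573, 554 and 376 on DAP 24, 1316, 1560.0 and 3247 on DAP 35 and 942, 758 and 891 in mature kernels. No 2 stages overlapped within a line, and the order was DAP 24, DAP 35, mature from low to high in DAN3130 but DAP 24, mature, DAP 35 in JI63. Thus lemon white1 was higher on DAP 35 than on DAP 24 in DAN3130 (log2 fold change 1.34, SE 0.31, adjusted p = 0.0146), and also in JI63 (log2 fold change 1.93, SE 0.31, adjusted p = 0.000981), and in mature kernels against DAP 35 it was higher in DAN3130 (log2 fold change 1.21, SE 0.31, adjusted p = 0.00379) and lower in JI63 (log2 fold change -1.13, SE 0.31, adjusted p = 0.00675). The DAN3130 change by DAP 35 was not called without DAN3130 DAP 24 replicate 1 or 2 or DAN3130 DAP 35 replicate 1 or 2 (log2 fold change 1.22 to 1.35, adjusted p = 0.0517 to 0.0719), and the DAN3130 change by maturity was not called with equal totals (log2 fold change 0.74, adjusted p = 0.0896). The JI63 fall by maturity was not called in a fit of only the groups compared (log2 fold change -1.13, adjusted p = 0.0545). As these were bulk kernels, fewer cells of a type and less RNA per cell cannot be told apart, here and in what follows.

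GGPP synthase1 (chromosome 2, 214097373 to 214099073), which makes the substrate of phytoene synthase, had 200.4, 208 and 327 normalized counts on DAP 24, 686, 551 and 460.5 on DAP 35 and 1407, 613 and 3343 in mature kernels of DAN3130. In JI63 it had 359, 362 and 477 on DAP 24, 480.4, 1117 and 387 on DAP 35 and 5764, 6639 and 3741 at maturity. The 3 mature JI63 libraries were above all others, whereas mature DAN3130 libraries overlapped those of DAP 35. The rise by maturity was called in JI63 (log2 fold change 3.14, SE 0.49, adjusted p = 9.7e-05) and in DAN3130 (log2 fold change 1.35, SE 0.49, adjusted p = 0.0325), there not without DAN3130 DAP 35 replicate 2 or 3 or DAN3130 mature replicate 1 or 3 (log2 fold change 0.73 to 1.36, adjusted p = 0.0556 to 0.175) and not with equal totals (log2 fold change 0.88, adjusted p = 0.105). GGPP synthase2 averaged 236 and GGPP synthase4 121 normalized counts per kb on DAP 24 in DAN3130, where GGPP synthase1 averaged 169, and neither passed a test. Within the 4 synthases, taken per kb, GGPP synthase1 held 27.1 to 37.7% of the summed level on DAP 24, then 40.4 to 49.6% by DAP 35 and finally 81.2 to 100% at maturity over the DAN3130 libraries, and 41.7 to 54.2%, 61.4 to 72.7% and 90.9 to 94.4% over the JI63 libraries. Such shares compare genes within a library and do not depend on how libraries were scaled.

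Both phytoene synthases fell. Yellow endosperm1, phytoene synthase 1 of the yellow kernel (chromosome 6, 85061271 to 85065182), had 356, 409 and 377 normalized counts on DAP 24, 304, 208 and 287 on DAP 35 and 0 in all 3 mature libraries of DAN3130. In JI63 it had 947, 967 and 1217 on DAP 24, 345, 308 and 352 on DAP 35 and 0, 0 and 14.6 in mature kernels. No mature library reached the lowest immature one. The absence of reads in mature DAN3130 kernels corresponds to a level at least 144-fold lower than on DAP 35, when the floor is set at 3 reads over the group (fitted log2 fold change -8.04, no bound, adjusted p = 5.97e-07), and JI63 gave log2 fold change -7.07, SE 0.76, adjusted p = 2.57e-06. Phytoene synthase2 (chromosome 8, 173521166 to 173525090) was a low gene, with 29.0, 38.0 and 14.6 normalized counts on DAP 24 and none on DAP 35 or at maturity in DAN3130, and 90.0, 154 and 229.7 on DAP 24, 49.4, 30.1 and 45.2 on DAP 35 and 5.16, 2.07 and 2.43 at maturity in JI63. Its loss by DAP 35 in DAN3130 was at least 28.5-fold (adjusted p = 0.000111), while for JI63 it was lower at maturity than on DAP 35 (log2 fold change -3.38, SE 0.57, adjusted p = 0.00018). All 4 of these calls held with any 1 library left out.

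The desaturases and isomerases moved by less than 2 on the log2 scale. Viviparous5, the phytoene desaturase, averaged 1222 ± 100.1 normalized counts on DAP 24, 1755 ± 296 on DAP 35 and 1250.2 ± 103 at maturity in DAN3130 and 2030.1 ± 169, 1758 ± 322 and 1454 ± 228 in JI63 (SD, n = 3 each). Its fall by maturity was called in DAN3130 (log2 fold change -0.48, SE 0.18, adjusted p = 0.0348), though not without DAN3130 DAP 35 replicate 1 or 2 or DAN3130 mature replicate 2 or 3 (log2 fold change -0.47 to -0.37, adjusted p = 0.0594 to 0.14), and JI63 gave log2 fold change -0.27, adjusted p = 0.241. Viviparous9, the zeta-carotene desaturase, was lower in mature than in DAP 35 kernels by 0.62 in DAN3130 and 0.86 in JI63 on the log2 scale (log2 fold change -0.62, adjusted p = 0.0394, and log2 fold change -0.86, adjusted p = 0.00797), the DAN3130 call being lost without DAN3130 DAP 35 replicate 1, 2 or 3 or DAN3130 mature replicate 3 (log2 fold change -0.69 to -0.43, adjusted p = 0.0535 to 0.148). Carotene isomerase1, which turns poly-cis into all-trans lycopene, had 74.8, 99.2 and 86.4 normalized counts in mature and 118, 301 and 198 in DAP 35 kernels of DAN3130, and 85.1, 62.1 and 178 and 272, 275 and 324 in those of JI63. The mature libraries were the lower in both lines without overlap (log2 fold change -1.14, SE 0.41, adjusted p = 0.031 in DAN3130, and log2 fold change -1.55, SE 0.41, adjusted p = 0.00623 in JI63), and the DAN3130 call was lost without DAN3130 DAP 35 replicate 2 or 3 or DAN3130 mature replicate 1 (log2 fold change -1.12 to -0.82, adjusted p = 0.0678 to 0.147). Carotene isomerase3 moved the other way in JI63, with 1447, 1132 and 1083 normalized counts at maturity against 449, 462 and 493 on DAP 35 (log2 fold change 1.37, SE 0.53, adjusted p = 0.0464). That call was lost without JI63 DAP 35 replicate 1, 2 or 3 or JI63 mature replicate 1, 2 or 3 (log2 fold change 1.24 to 1.45, adjusted p = 0.0733 to 0.124) and with equal totals (log2 fold change 0.42, adjusted p = 0.544). Carotene isomerase2 passed no test.

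Lycopene epsilon cyclase1, on the branch to lutein, had 699, 712 and 776 normalized counts in mature and 233, 574 and 189 in DAP 35 kernels of JI63, with no overlap (log2 fold change 1.31, SE 0.43, adjusted p = 0.0204). The call was lost without JI63 DAP 35 replicate 1 or 3 or JI63 mature replicate 3 (log2 fold change 0.99 to 1.26, adjusted p = 0.0536 to 0.104) and with equal totals (log2 fold change 0.36, adjusted p = 0.438), and in DAN3130 the values were 357, 758 and 1052 in mature kernels and 687, 371 and 403 on DAP 35, which overlapped (log2 fold change 0.49, adjusted p = 0.36). Zeaxanthin epoxidase2, whose locus joins 2 annotated genes and so cannot be given to the epoxidase alone, passed no test between stages. The cleavage dioxygenases of strigolactone synthesis were barely present, carotenoid cleavage dioxygenase8 at a highest value of 87.0 normalized counts and carotenoid cleavage dioxygenase7 at 34.1, each in a mature JI63 library.

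Among the 9 NCED loci, which include viviparous14, the leading gene differed between stages. NCED4 (chromosome 2, 241535851 to 241537578) had 99.5, 73.3 and 130.0 normalized counts on DAP 24, 1081, 1414 and 742 on DAP 35 and 951, 3134 and 1817 at maturity in DAN3130. In JI63 it had 239, 93.2 and 136 on DAP 24, 886, 4888 and 869 on DAP 35 and 5689, 1145 and 3323 at maturity. Every DAP 35 library lay above every DAP 24 library, while mature and DAP 35 libraries overlapped in both lines. The rise by DAP 35 was the largest called rise of the set in each line (log2 fold change 3.39, SE 0.67, adjusted p = 0.00568 in DAN3130, and log2 fold change 3.42, SE 0.67, adjusted p = 0.00438 in JI63), held with any 1 library left out, and was followed by no call at maturity (log2 fold change 0.75, adjusted p = 0.372 in DAN3130, and log2 fold change 0.84, adjusted p = 0.339 in JI63). In JI63 DAP 35 replicate 2, the library of its group richest in embryo markers, NCED4 stood far above the other replicates, and the call held without it.

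Viviparous14 (chromosome 1, 255021038 to 255023435), the NCED known from its germinating mutant, had 279.9, 231 and 298 normalized counts on DAP 24, 521, 305 and 422 on DAP 35 and 121, 351 and 124 at maturity in DAN3130, and 93.2, 121 and 133 on DAP 24, 191, 830.1 and 67.6 on DAP 35 and 61.9, 47.6 and 24.3 at maturity in JI63. DAP 35 libraries were above those of DAP 24 in DAN3130 and spread around them in JI63, and no call was made between these stages. Mature kernels were lower than DAP 35 kernels in JI63 (log2 fold change -2.38, SE 0.68, adjusted p = 0.00967), a call that was lost without JI63 DAP 35 replicate 2 (log2 fold change -1.43, adjusted p = 0.053), and log2 fold change -1.22, adjusted p = 0.149 was found in DAN3130. Over the DAN3130 libraries viviparous14 held 51.6 to 53.7% of the summed NCED level per kb on DAP 24, then 12.0 to 25.5% by DAP 35 and finally 4.16 to 7.66% at maturity, while NCED4 held 22.7 to 32.5%, 62.2 to 77.4% and 83.8 to 87.1%. In JI63 viviparous14 held 13.8 to 33.0%, 4.69 to 9.93% and 0.510 to 2.57%, and NCED4 held 35.4 to 49.1%, 64.0 to 83.7% and 85.8 to 96.6%. The first place thus belonged to viviparous14 in all 3 DAN3130 libraries of DAP 24 and to NCED4 in every library of the other 5 groups.

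Of the other NCED loci, NCED5 averaged 364 normalized counts per kb on DAP 35 in JI63, where viviparous14 averaged 151 and NCED4 1281. NCED5 had 12.9, 0 and 9.74 normalized counts in mature and 338, 1692 and 49.6 in DAP 35 kernels of JI63, a wide spread that did not overlap (log2 fold change -5.86, SE 1.5, adjusted p = 0.00477). In DAN3130 it was 0 to 21.3 in mature and 38.4 to 117 in DAP 35 kernels (log2 fold change -3.75, adjusted p = 0.048), and this call was lost without DAN3130 DAP 35 replicate 1, 2 or 3 or DAN3130 mature replicate 1 or 3 (log2 fold change -4.13 to -2.61, adjusted p = 0.0655 to 0.178). NCED2 rose to 116, 114 and 70.6 normalized counts in mature JI63 kernels, against 13.2, 8.14 and 0.685 on DAP 35 (log2 fold change 4.04, SE 1.44, adjusted p = 0.0319), lost without JI63 DAP 35 replicate 3 or JI63 mature replicate 1, 2 or 3 (log2 fold change 3.12 to 4.27, adjusted p = 0.0527 to 0.14) and with equal totals (log2 fold change 3.18, adjusted p = 0.0711). NCED6 fell to no reads in mature DAN3130 kernels, against 34.2 to 40.3 normalized counts on DAP 35, which is at least 20.6-fold (adjusted p = 0.000271), and its JI63 values were 0 to 19.5 at maturity and 2.26 to 6.51 on DAP 35. NCED3, with no read in DAN3130 on DAP 35, was read in 2 of 3 mature libraries there (0 to 122 normalized counts, adjusted p = 0.0278), a call lost without DAN3130 DAP 35 replicate 1, 2 or 3 or DAN3130 mature replicate 1 or 3 (log2 fold change 3.10 to 4.38, adjusted p = 0.0613 to 0.122). NCED9 passed no test. Viviparous10, a molybdenum cofactor gene on which the aldehyde oxidase of the last ABA step depends, was 2040.0 to 2752 in mature and 1584 to 1747 in DAP 35 kernels of DAN3130 and 1938 to 2975 and 1600.5 to 1622 in those of JI63 (log2 fold change 0.53, adjusted p = 0.0133, and log2 fold change 0.53, adjusted p = 0.0136). With equal totals its change was log2 fold change 0.06, adjusted p = 0.851 in DAN3130 and log2 fold change -0.42, adjusted p = 0.0971 in JI63, where the direction turned, and the JI63 call was also lost without JI63 mature replicate 3 (log2 fold change 0.36, adjusted p = 0.0767).

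The ABA 8'-hydroxylases, which start ABA breakdown, changed places at maturity. ABA 8'-hydroxylase3 (chromosome 4, 60281640 to 60287451) had 5634, 5988 and 4450.1 normalized counts on DAP 24, 4872, 9189.5 and 5530.1 on DAP 35 and 57.9, 3.54 and 0 in mature kernels of DAN3130. In JI63 it had 6719, 7867 and 8004 on DAP 24, 2369.9, 2757 and 2557 on DAP 35 and 0, 18.6 and 29.2 at maturity. It was thus 2369.9 or more in all 12 immature libraries and 57.9 or less in all 6 mature ones (log2 fold change -9.93, SE 1.20, adjusted p = 6.93e-06 in DAN3130, and log2 fold change -8.25, SE 1.20, adjusted p = 4.63e-05 in JI63). ABA 8'-hydroxylase2 (chromosome 4, 162654597 to 162657755) did the reverse, with 217, 209 and 156 normalized counts on DAP 24, 257, 531 and 375 on DAP 35 and 2967, 5752 and 10195 at maturity in DAN3130, and 233, 207 and 226 on DAP 24, 669, 952 and 745 on DAP 35 and 14885, 18322 and 26337 at maturity in JI63. No mature library overlapped a DAP 35 one (log2 fold change 3.91, SE 0.37, adjusted p = 5.56e-07 in DAN3130, and log2 fold change 4.63, SE 0.37, adjusted p = 1.39e-07 in JI63). In JI63 the gene had already risen by DAP 35 (log2 fold change 1.81, SE 0.37, adjusted p = 0.0052), while DAN3130 gave log2 fold change 0.95, adjusted p = 0.158. Each of these 5 calls held in all alternatives tried, other scalings and tests included.

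In shares of the summed level per kb of the 5 hydroxylases, ABA 8'-hydroxylase3 held 88.9 to 93.1% on DAP 24, then 85.7 to 92.0% by DAP 35 and finally 0 to 2.36% at maturity over the DAN3130 libraries, and 92.5 to 95.8%, 60.9 to 74.0% and 0 to 0.136% in JI63. ABA 8'-hydroxylase2 held 2.54 to 2.77%, 3.92 to 4.70% and 97.6 to 99.5% in DAN3130 and 2.01 to 2.60%, 15.3 to 17.4% and 99.5 to 99.6% in JI63. The summed level of the family, by contrast, averaged 2743, 3357 and 2387 normalized counts per kb over the 3 stages in DAN3130 and 3699, 1779 and 7470.4 in JI63, sums that do move with the scaling. ABA 8'-hydroxylase1 fell with ABA 8'-hydroxylase3, to 0, 70.8 and 42.1 normalized counts in mature kernels, against 246, 347 and 750.1 on DAP 35, in DAN3130 (log2 fold change -4.78, SE 1.27, adjusted p = 0.00539) and to 7.74, 66.2 and 102, against 657, 726 and 193, in JI63 (log2 fold change -3.53, SE 1.27, adjusted p = 0.0329), the JI63 call being lost without JI63 DAP 35 replicate 1 or 2 or JI63 mature replicate 1 (log2 fold change -3.26 to -2.44, adjusted p = 0.0957 to 0.161). ABA 8'-hydroxylase4 had 49.0, 0 and 0 normalized counts in mature and 105, 429 and 146 in DAP 35 kernels of JI63 (log2 fold change -5.68, SE 1.30, adjusted p = 0.00218) and no more than 32.7 in any DAN3130 library. ABA 8'-hydroxylase2 lies 79693 bases from NCED6 on chromosome 4, and ABA 8'-hydroxylase1 lies 58191 bases from the unread NCED8 on chromosome 5.

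**Figure D3:**
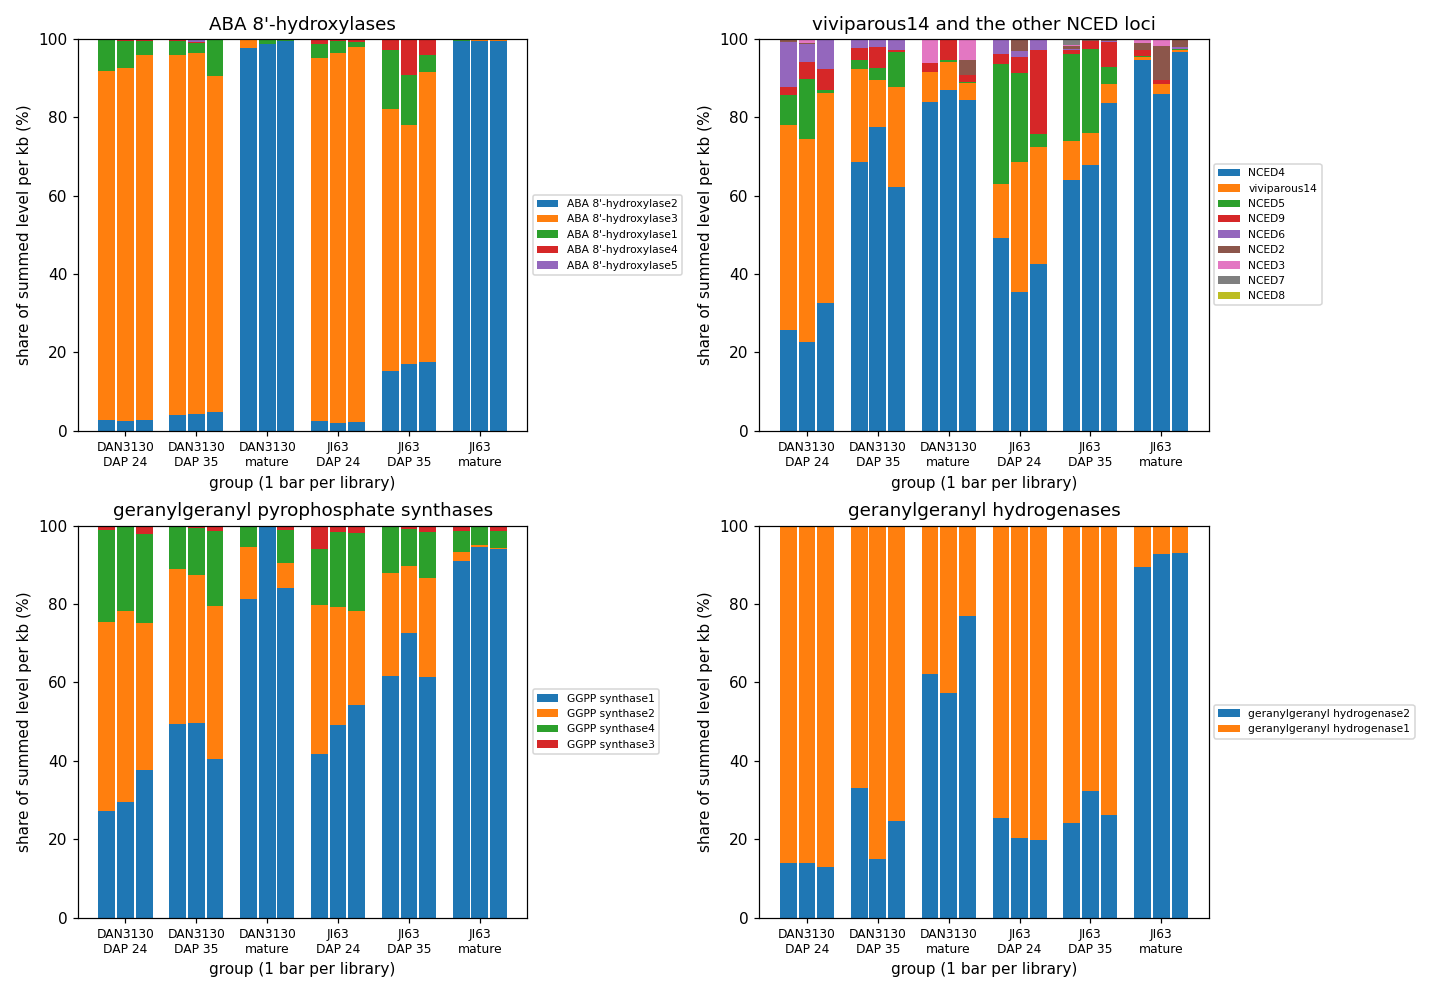
Share of the summed level per kb (vertical axis, %) held by each member of 4 enzyme families, 1 bar per library in 6 groups. ABA 8'-hydroxylase3 (orange) fills 60.9% or more of every immature bar and at most 2.36% of every mature one, where ABA 8'-hydroxylase2 (blue) holds 97.6% or more, and the blue members of the other 3 families, NCED4, GGPP synthase1 and geranylgeranyl hydrogenase2, hold the larger part of every mature bar.

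Viviparous1, the B3 transcription factor orthologous to ABI3 of Arabidopsis (chromosome 3, 164461097 to 164466166), rose at both steps. It had 980.0, 977 and 1396 normalized counts on DAP 24, 2746, 2391 and 2309.9 on DAP 35 and 11181, 9658 and 26053 at maturity in DAN3130. In JI63 it had 1366, 1216 and 1488 on DAP 24, 2728, 5368 and 2420.2 on DAP 35 and 16748, 15803 and 15895 at maturity. The stages did not overlap in either line. The change by DAP 35 was small (log2 fold change 1.17, SE 0.32, adjusted p = 0.0412 in DAN3130, and log2 fold change 1.28, SE 0.32, adjusted p = 0.0198 in JI63) and that by maturity larger (log2 fold change 2.51, SE 0.32, adjusted p = 1.23e-05 in DAN3130, and log2 fold change 2.30, SE 0.32, adjusted p = 3.36e-05 in JI63). The earlier calls were lost in DAN3130 without DAN3130 DAP 24 replicate 1, 2 or 3 or DAN3130 DAP 35 replicate 1, 2 or 3 (log2 fold change 1.08 to 1.34, adjusted p = 0.0539 to 0.15) and for JI63 without JI63 DAP 24 replicate 1 or 2 or JI63 DAP 35 replicate 2 (log2 fold change 0.93 to 1.29, adjusted p = 0.0551 to 0.104), the later ones in no alternative, and edgeR did not call the DAN3130 change by DAP 35. Viviparous8, a peptidase related to AMP1 of Arabidopsis, had 531, 216 and 556 normalized counts in mature and 39.8, 43.0 and 94.8 in DAP 35 kernels of DAN3130 (log2 fold change 2.85, SE 0.44, adjusted p = 7.41e-05), and 805, 623 and 803 and 186, 201 and 178 in those of JI63 (log2 fold change 1.97, SE 0.44, adjusted p = 0.00189). Mature libraries were the higher without overlap in both lines, but the JI63 call ended with equal totals (log2 fold change 1.02, adjusted p = 0.0717).

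The ABA-responsive genes proper also rose. Responsive to abscisic acid15 (chromosome 5, 14451040 to 14452120) had 13846, 13661 and 15101 normalized counts on DAP 24, 44310.3, 52079.8 and 38789.9 on DAP 35 and 273595, 154046 and 502999 at maturity in DAN3130. In JI63 it had 17127, 16352 and 23418 on DAP 24, 34076, 74349 and 27695 on DAP 35 and 1032650.5, 409853 and 602874 at maturity. Mature libraries were above all others in both lines (DAN3130: log2 fold change 2.63, SE 0.41, adjusted p = 7.06e-05, JI63: log2 fold change 3.94, SE 0.41, adjusted p = 1.72e-06). The change by DAP 35 was called in DAN3130 (log2 fold change 1.66, SE 0.41, adjusted p = 0.0223), though not without DAN3130 DAP 24 replicate 1, 2 or 3 or DAN3130 DAP 35 replicate 1 or 2 (log2 fold change 1.55 to 1.70, adjusted p = 0.062 to 0.0935), and not in JI63 (log2 fold change 1.14, adjusted p = 0.103). Abscisic acid-responsive28, a late embryogenesis abundant protein (chromosome 5, 5800736 to 5801751), had 451, 361 and 247 on DAP 24, 1059.6, 1242 and 952 on DAP 35 and 3493, 5079 and 19100.0 at maturity in DAN3130, as normalized counts, and 339, 167 and 274 on DAP 24, 692, 3699 and 809 on DAP 35 and 14191, 10494 and 14490.4 at maturity in JI63. It too was highest at maturity without overlap (log2 fold change 2.69, SE 0.60, adjusted p = 0.00153 in DAN3130, and log2 fold change 3.34, SE 0.60, adjusted p = 0.000309 in JI63). Its rise by DAP 35 was called in JI63 (log2 fold change 2.35, SE 0.60, adjusted p = 0.0214), though not without JI63 DAP 24 replicate 2 or 3 or JI63 DAP 35 replicate 2 (log2 fold change 1.58 to 2.42, adjusted p = 0.058 to 0.104), and gave log2 fold change 1.65, adjusted p = 0.128 in DAN3130. Over the same step to maturity the embryo marker sum was higher in both lines, with 2 of 7 tested marker loci higher and 1 lower in DAN3130 and 3 higher and 1 lower in JI63. The part of that in the rise of these genes was not tested.

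**Figure D4:**
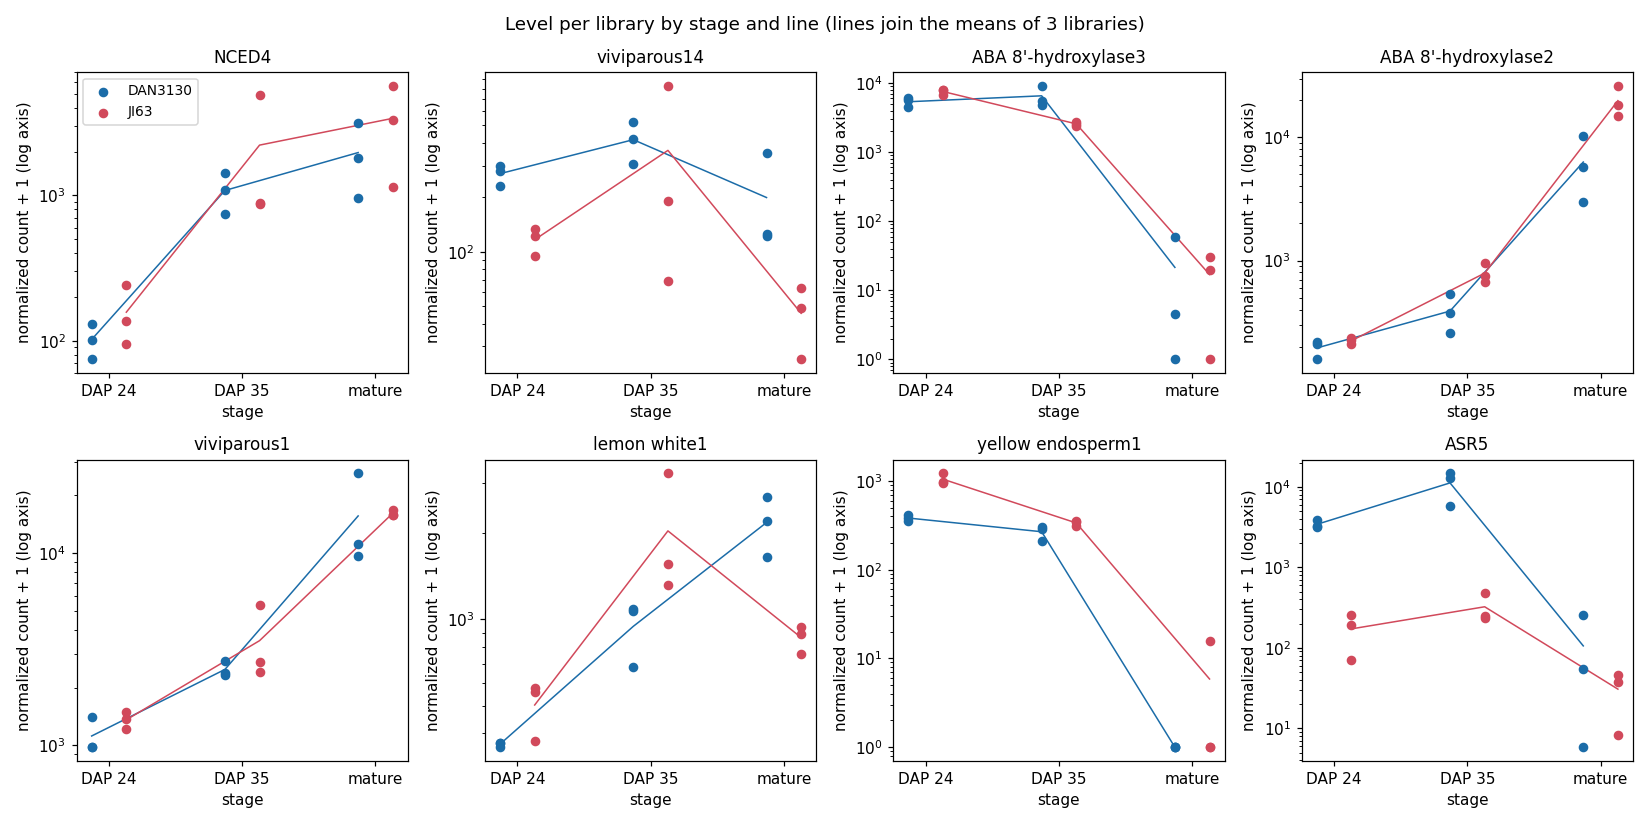
Normalized count plus 1 (log axis) of 8 genes in each library at DAP 24, DAP 35 and maturity, DAN3130 in blue and JI63 in red, lines joining the means of 3 libraries. NCED4 rises by DAP 35 in both lines, ABA 8'-hydroxylase3 falls and ABA 8'-hydroxylase2 rises at maturity, lemon white1 turns down at maturity in JI63 only, and ASR5 separates the lines on DAP 24 and DAP 35.

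The abscisic acid stress ripening (ASR) genes, small hydrophilic proteins of which 8 were found, had no member called higher at maturity, while of the 7 tested ASR1, ASR3, ASR5 and ASR6 were called lower in DAN3130 and ASR1, ASR3, ASR5, ASR7 and ASR9 in JI63 (against 31.5% and 27.8% of all tested loci). ASR5 (chromosome 10, 117126777 to 117127673) had 3265, 3125 and 3838 normalized counts on DAP 24, 14688, 13021 and 5784 on DAP 35 and 4.83, 255 and 54.0 at maturity in DAN3130, and 189.7, 254 and 68.9 on DAP 24, 236, 483 and 248 on DAP 35 and 36.1, 45.5 and 7.30 at maturity in JI63. ASR1 (chromosome 10, 8781222 to 8782218) had 139, 149 and 178 on DAP 24, 121, 218 and 133 on DAP 35 and 3 values of 0 at maturity in DAN3130, and 1821, 1845 and 2263 on DAP 24, 692, 1561 and 398 on DAP 35 and 0, 6.21 and 0 at maturity in JI63. For both genes every mature library was below every DAP 35 one. ASR5 fell by maturity in DAN3130 (log2 fold change -7.90, SE 1.0, adjusted p = 1.1e-05), and also in JI63 (log2 fold change -3.65, SE 1.0, adjusted p = 0.00729), ASR1 by at least 85.0-fold in DAN3130 (adjusted p = 5.21e-07) and with log2 fold change -8.61, SE 0.68, adjusted p = 1.29e-07 in JI63. ASR3, with 17.04, 4.032 and 20.02 normalized counts on DAP 35 in DAN3130 and 31.4, 193 and 24.2 in JI63, had no read in any of the 6 mature libraries (at least 7.41-fold lower in DAN3130, adjusted p = 0.00127, and at least 35.4-fold lower in JI63, adjusted p = 2.71e-05). In DAN3130 ASR3 was higher on DAP 35 than on DAP 24, where it had 0.742, 2.62 and 0 (log2 fold change 2.75, SE 0.79, adjusted p = 0.0494), a call of few reads that edgeR and DESeq2 did not make and that was lost without DAN3130 DAP 24 replicate 1, 2 or 3 or DAN3130 DAP 35 replicate 1 or 3 (log2 fold change 2.30 to 3.23, adjusted p = 0.0593 to 0.202).

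Of the remaining ASR genes, ASR7 and ASR9 are neighbours on chromosome 3, 17320 bases apart, with ASR8 3089 bases from ASR7, and whether they share reads was not tested, so that their separate values are uncertain. ASR9 fell in JI63 to 2.58, 0 and 0 normalized counts at maturity, against 97.3, 221 and 41.1 on DAP 35 (log2 fold change -5.99, SE 0.77, adjusted p = 1.52e-05), and had at most 2.62 in any DAN3130 library. ASR7 fell in JI63 to 20.6, 0 and 7.30 normalized counts, against 70.8, 128 and 24.4 (log2 fold change -3.45, adjusted p = 0.0219), lost without JI63 DAP 35 replicate 1 or 2 or JI63 mature replicate 2 (log2 fold change -3.34 to -2.20, adjusted p = 0.0614 to 0.124). ASR6 had no read in mature DAN3130 kernels, against 33.6 to 59.7 normalized counts on DAP 35 (at least 24.0-fold lower, adjusted p = 0.000708), and its JI63 change was not called (log2 fold change -1.66, adjusted p = 0.243). ASR2 passed no test. The starchy endosperm markers fell over the same step, 10 of 13 tested in DAN3130 and 11 of 13 in JI63, and the basal transfer layer markers, 10 loci summing to 3007 to 4248 on DAP 35 in DAN3130 and 147 to 402 in JI63, summed to 0 to 121 and 0 at maturity. Their part in the fall of the ASR genes, yellow endosperm1 and ABA 8'-hydroxylase3 was not tested.

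On the vitamin E side, geranylgeranyl hydrogenase2, an enzyme that reduces the geranylgeranyl chain to phytyl (chromosome 3, 39647289 to 39648626), rose at maturity. It had 89.1, 90.0 and 105 normalized counts on DAP 24, 226, 118 and 139 on DAP 35 and 1098, 1002 and 6439 at maturity in DAN3130, and 121, 103 and 148 on DAP 24, 194, 960.3 and 177 on DAP 35 and 5135, 5720.2 and 5350.2 at maturity in JI63. All 6 mature libraries were above all 12 immature ones (log2 fold change 3.62, SE 0.64, adjusted p = 0.000242 in DAN3130, and log2 fold change 4.07, SE 0.64, adjusted p = 0.000102 in JI63). Its sister gene geranylgeranyl hydrogenase1 passed no test, so that geranylgeranyl hydrogenase2 held 12.9 to 13.9%, 14.8 to 33.0% and 57.3 to 77.0% of the summed level per kb of the pair over the 3 stages in DAN3130 and 19.7 to 25.3%, 24.1 to 32.3% and 89.4 to 92.9% in JI63. Homogentisate geranylgeranyl transferase1, the tocotrienol enzyme of the cereal endosperm (chromosome 9, 95895575 to 95899061), had 754, 741 and 507 normalized counts on DAP 24, 135, 151 and 254 on DAP 35 and 2.41, 0 and 1.08 at maturity in DAN3130, and 115, 161 and 132 on DAP 24, 74.4, 88.7 and 91.6 on DAP 35 and 3 values of 0 at maturity in JI63. The 3 stages did not overlap in either line. It was lower by DAP 35 in DAN3130 (log2 fold change -1.92, SE 0.51, adjusted p = 0.0357), a call lost without DAN3130 DAP 24 replicate 1, 2 or 3 or DAN3130 DAP 35 replicate 1 or 2 (log2 fold change -2.11 to -1.74, adjusted p = 0.0728 to 0.148), and lower by maturity in DAN3130 (log2 fold change -6.50, SE 0.51, adjusted p = 1e-07), as it was in JI63 (at least 36.3-fold, adjusted p = 1.53e-07). White seedling2, an organelle DNA polymerase, was lower in mature than in DAP 35 kernels (log2 fold change -0.77, adjusted p = 0.0115 in DAN3130, and log2 fold change -0.61, adjusted p = 0.0426 in JI63), calls lost in DAN3130 without DAN3130 DAP 35 replicate 3 (log2 fold change -0.65, adjusted p = 0.0553) and for JI63 without JI63 DAP 35 replicate 1 or 3 or JI63 mature replicate 2 or 3 (log2 fold change -0.57 to -0.51, adjusted p = 0.104 to 0.147).

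Between the lines, all reads had been aligned to the B73 genome, so that a lower level and a copy that has diverged from B73 or is missing cannot be told apart. Most of the called genes were lower in DAN3130 than in JI63. On DAP 24, 2 of 42 were higher (4.76%, against 11.2% of all tested loci) and 7 lower (16.7%, against 13.6%), on DAP 35 2 were higher (4.76%, against 11.3%) and 9 lower (21.4%, against 11.9%), and in mature kernels 2 were higher (4.76%, against 15.6%) and 7 lower (16.7%, against 21.5%). The median log2 difference was -0.41, -0.59 and -0.78 at the 3 stages, and over all loci it was -0.01, -0.06 and -0.13. The DAN3130 libraries lay wholly below those of JI63 for 17, 14 and 6 genes and wholly above for 6, 5 and 3, of which 14, 8 and 2 were not called. The matching share of all tested loci was not counted, so these numbers add nothing to the calls. Of the calls, 6 were shared by DAP 24 and DAP 35 (66.7% and 54.5% of the calls of each), and 2, phytoene synthase2 and zeaxanthin epoxidase2, by all 3 stages. Sharing between stages over all tested loci was not counted. With the 2 libraries high in embryo markers left out, 10, 9 and 14 genes were called. On DAP 24 the count was 21 with a variance per group (7 higher and 14 lower), 15 with only the 12 immature libraries (3 higher and 12 lower) and 17 with only the groups compared (4 higher and 13 lower). Of the 9 mature calls, a variance per group left those of carotene isomerase3 and ABA 8'-hydroxylase2, and a fit of only the groups compared left those of phytoene synthase2 and lemon white1. The count in mature kernels was 7 to 14 with any 1 library left out, the highest of these without DAN3130 mature replicate 3. On DAP 35 it was 5 to 9, the lowest without DAN3130 DAP 35 replicate 3.

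**Figure D5:**
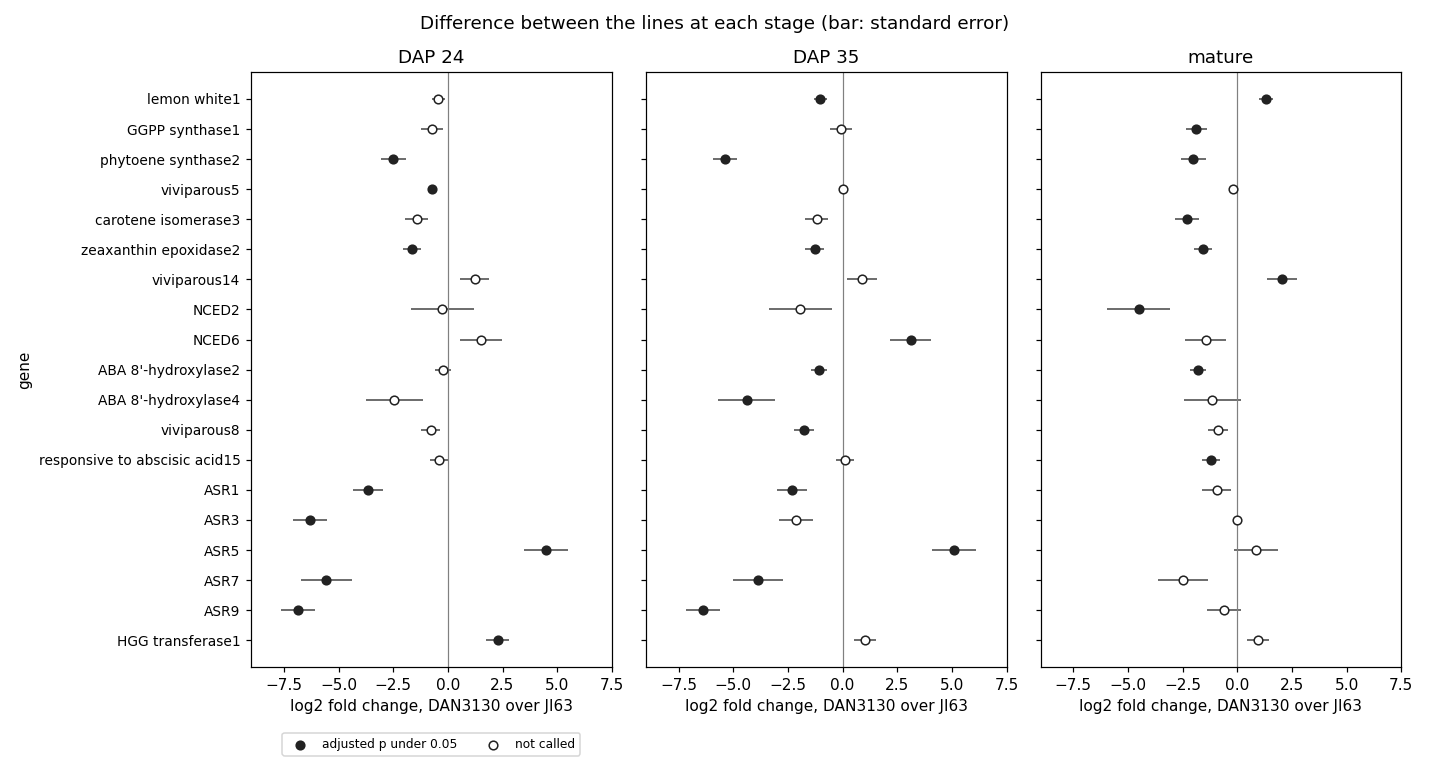
Log2 fold change of DAN3130 over JI63 (limma estimate, bar: standard error) on DAP 24, DAP 35 and in mature kernels for the genes called at 1 stage or more, filled where the adjusted p was under 0.05. ASR5 lies to the right of 0 at 4.50 and 5.08 on DAP 24 and DAP 35 while ASR9 lies at -6.86 and -6.38, and phytoene synthase2 and zeaxanthin epoxidase2 are filled and left of 0 in all 3 panels.

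On DAP 24 and DAP 35, though not in mature kernels, where no ASR gene was called, the lines differed in their ASR genes, with ASR5 holding the largest share in DAN3130 and ASR1 in JI63. The ASR5 values given above for DAN3130 were 3125 normalized counts or more on DAP 24 and 5784 or more on DAP 35, where JI63 had at most 254 and 483 (log2 fold change 4.50, SE 1.0, adjusted p = 0.00301 on DAP 24, and log2 fold change 5.08, SE 1.0, adjusted p = 0.00121 on DAP 35). ASR1 was lower in DAN3130 on DAP 24 (log2 fold change -3.66, SE 0.68, adjusted p = 0.000668) and on DAP 35 (log2 fold change -2.31, SE 0.68, adjusted p = 0.0201), the DAP 35 call being lost without DAN3130 DAP 35 replicate 1 or 3 or JI63 DAP 35 replicate 1 or 2 (log2 fold change -2.37 to -1.78, adjusted p = 0.0519 to 0.111). ASR9 had 0, 2.62 and 0 normalized counts in DAN3130 and 318, 196 and 90.0 in JI63 on DAP 24 (log2 fold change -6.86, SE 0.77, adjusted p = 5.67e-06), and 0, 0 and 0.589 and 97.3, 221 and 41.1 on DAP 35 (log2 fold change -6.38, SE 0.77, adjusted p = 1.32e-05). ASR3 had 0.742, 2.62 and 0 normalized counts in DAN3130 and 138, 112 and 194 in JI63 on DAP 24 (log2 fold change -6.30, SE 0.79, adjusted p = 1.71e-05). ASR7 had 4.45, 1.96 and 0 normalized counts in DAN3130 and 256, 124 and 51.0 in JI63 on DAP 24 (log2 fold change -5.55, SE 1.14, adjusted p = 0.00167), and on DAP 35 its difference (log2 fold change -3.88, adjusted p = 0.0207) was lost without DAN3130 DAP 35 replicate 2 or JI63 DAP 35 replicate 1 or 2 (log2 fold change -3.77 to -2.85, adjusted p = 0.0628 to 0.112). Per kb, ASR5 held 94.9 to 95.1% of the summed ASR level in DAN3130 and 2.69 to 9.67% in JI63 on DAP 24, and 95.9 to 98.4% and 17.6 to 29.7% on DAP 35. ASR1 held 3.67 to 4.10% in DAN3130 and 55.0 to 80.1% in JI63 on DAP 24, and 0.733 to 2.00% and 43.3 to 51.5% on DAP 35. Tissue markers differed at these stages too. Basal transfer layer markers were higher in DAN3130 for 4 of 7 tested loci on DAP 24 and 6 of 7 on DAP 35, with 0 and 1 lower, and their 10 loci summed to 7894 to 8807 in DAN3130 and 5759.6 to 7114 in JI63 on DAP 24. Embryo markers were higher for 0 and lower for 3 of 7 on DAP 24, and higher for 1 and lower for 0 on DAP 35. Starchy endosperm markers were higher for 3 of 13 at each stage, with 1 and 0 lower, and pericarp and leaf-like markers were lower for 2 of 8 at each. The 13 pericarp and leaf-like loci summed higher in DAN3130 on DAP 24 (3723 to 4073, against 1519 to 2517 in JI63). On DAP 35 they summed lower (1208 to 1441, against 1661 to 3516). The part of these tissue markers in the line differences was not tested.

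Of the pigment genes, phytoene synthase2 was lower in DAN3130 on DAP 24 and DAP 35, with the values given above (log2 fold change -2.49, SE 0.57, adjusted p = 0.00367 on DAP 24, and at least 43.6-fold with adjusted p = 3.28e-06 on DAP 35). In mature kernels it was also called lower (adjusted p = 0.012), but this rests on very few reads. JI63 itself had 5.16, 2.07 and 2.43 normalized counts there, where 1 read was worth 2.07 to 2.58, and DAN3130 had none. The bound was at least 1.74-fold, and the call was lost with pseudocount 5 (log2 fold change -0.70, adjusted p = 0.216). Zeaxanthin epoxidase2 had 74.2, 94.6 and 199 normalized counts in DAN3130 and 422, 368 and 276 in JI63 on DAP 24 (log2 fold change -1.64, SE 0.42, adjusted p = 0.00847). On DAP 35 it had 199, 286 and 168 in DAN3130 and 483, 438 and 659 in JI63 (log2 fold change -1.29, SE 0.42, adjusted p = 0.0367), and in mature kernels 217, 351 and 141 and 457, 1021 and 611 (log2 fold change -1.57, SE 0.42, adjusted p = 0.00866). No DAN3130 library reached the lowest JI63 one of its stage. The DAP 24 call was lost without DAN3130 DAP 24 replicate 1 (log2 fold change -1.35, adjusted p = 0.0518), the DAP 35 call without DAN3130 DAP 35 replicate 1 or 3 or JI63 DAP 35 replicate 1, 2 or 3 (log2 fold change -1.41 to -1.11, adjusted p = 0.0534 to 0.137), and with equal totals neither the DAP 35 call (log2 fold change -1.27, adjusted p = 0.0698) nor the mature one (log2 fold change -1.07, adjusted p = 0.0892) was made. Viviparous5 was lower in DAN3130 on DAP 24 (log2 fold change -0.73, adjusted p = 0.00574), though not with equal totals (log2 fold change -0.68, adjusted p = 0.0501). Carotene isomerase3 had 427, 74.4 and 457 normalized counts in mature DAN3130 and 1447, 1132 and 1083 in mature JI63 kernels (log2 fold change -2.30, SE 0.53, adjusted p = 0.0031), and GGPP synthase1, with the values above, was lower there too (log2 fold change -1.88, SE 0.49, adjusted p = 0.00766), but with only the groups compared neither carotene isomerase3 (log2 fold change -2.30, adjusted p = 0.139) nor GGPP synthase1 (log2 fold change -1.88, adjusted p = 0.159) was called, nor was GGPP synthase1 with a variance per group (log2 fold change -1.88, adjusted p = 0.142). Homogentisate geranylgeranyl transferase1, on the vitamin E side, was higher in DAN3130 on DAP 24 (log2 fold change 2.28, SE 0.51, adjusted p = 0.00339). Yellow endosperm1 was lower in every DAN3130 than in every JI63 library on DAP 24 but was not called (log2 fold change -1.45, adjusted p = 0.204).

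Of the ABA genes, viviparous14 was higher in mature DAN3130 than in mature JI63 kernels (log2 fold change 2.04, SE 0.68, adjusted p = 0.0284), a call lost without DAN3130 mature replicate 2 or JI63 mature replicate 2 or 3 (log2 fold change 1.53 to 2.13, adjusted p = 0.0513 to 0.114). NCED2 was lower there (log2 fold change -4.51, SE 1.44, adjusted p = 0.0228), with 0, 0 and 81.0 normalized counts in DAN3130 and 116, 114 and 70.6 in JI63, lost without DAN3130 mature replicate 1 or 2 or JI63 mature replicate 1 or 2 (log2 fold change -4.40 to -3.45, adjusted p = 0.0579 to 0.0963). ABA 8'-hydroxylase2 was lower in DAN3130 in mature kernels (log2 fold change -1.79, SE 0.37, adjusted p = 0.00121), though not with only the groups compared (log2 fold change -1.79, adjusted p = 0.0966), and on DAP 35 (log2 fold change -1.07, SE 0.37, adjusted p = 0.0455), the DAP 35 call being lost without DAN3130 DAP 35 replicate 1 or 3 or JI63 DAP 35 replicate 1, 2 or 3 (log2 fold change -1.18 to -0.80, adjusted p = 0.0661 to 0.203). ABA 8'-hydroxylase4 had 8.52, 21.5 and 2.36 normalized counts in DAN3130 and 105, 429 and 146 in JI63 on DAP 35 (log2 fold change -4.39, SE 1.30, adjusted p = 0.0214), lost without DAN3130 DAP 35 replicate 1 or 3 or JI63 DAP 35 replicate 2 (log2 fold change -4.44 to -3.68, adjusted p = 0.0548 to 0.0963). NCED6 was the only NCED called higher in DAN3130 on DAP 35, at 34.2 to 40.3 normalized counts against 2.26 to 6.51 in JI63 (log2 fold change 3.11, adjusted p = 0.0252), lost without DAN3130 DAP 35 replicate 1, 2 or 3 or JI63 DAP 35 replicate 1 or 3 (log2 fold change 2.88 to 3.19, adjusted p = 0.0553 to 0.0882). Viviparous8 was lower in DAN3130 on DAP 35 (log2 fold change -1.77, SE 0.44, adjusted p = 0.00753). Responsive to abscisic acid15 was lower in mature DAN3130 kernels with overlapping libraries (log2 fold change -1.20, SE 0.41, adjusted p = 0.0303), lost without DAN3130 mature replicate 1 or 2 or JI63 mature replicate 1 or 3 (log2 fold change -1.23 to -0.77, adjusted p = 0.0592 to 0.159) and with equal totals (log2 fold change -0.70, adjusted p = 0.11). Lemon white1, of the genes that supply the carotenoid pathway, was lower in DAN3130 on DAP 35 (log2 fold change -1.03, SE 0.31, adjusted p = 0.022). This call was lost without DAN3130 DAP 35 replicate 3 or JI63 DAP 35 replicate 3 (log2 fold change -0.80 to -0.63, adjusted p = 0.111 to 0.131) and with equal totals (log2 fold change -1.01, adjusted p = 0.0506). In mature kernels lemon white1 was higher in DAN3130 (log2 fold change 1.31, SE 0.31, adjusted p = 0.00322), though not with a variance per group (log2 fold change 1.31, adjusted p = 0.19). Embryo markers were lower in DAN3130 for 4 of 7 loci in mature kernels, and starchy endosperm markers higher for 6 of 13. Pericarp and leaf-like markers were lower for 3 of 8 tested loci and higher for 0. Their 13 loci summed to 386 to 799 in mature DAN3130 and 11658 to 18302 in mature JI63 kernels, with 7 and 3 loci at 0. From DAP 35 to maturity in JI63 1 of the 8 was higher and 3 lower. The sum over the JI63 libraries was 1661 to 3516 on DAP 35 and 11658 to 18302 at maturity, so the sum does not stand for the list. The part of these markers in the differences was not tested. Under edgeR, ABA 8'-hydroxylase2, ASR7 and NCED6 were not called on DAP 35, nor NCED2 and responsive to abscisic acid15 in mature kernels, and under DESeq2 phytoene synthase2 was not called in mature kernels and NCED2 had no adjusted p.

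Whether a change itself differed between the lines was tested as the JI63 change minus the DAN3130 change. From DAP 24 to DAP 35 no gene of the set passed in limma (0 higher and 0 lower, where 0.706% and 1.66% of all tested loci did), with 3 of 42 at an unadjusted p under 0.05, and edgeR called 1 gene and DESeq2 2. From DAP 35 to maturity 1 gene passed with the higher and 3 with the lower change in JI63 (against 7.92% and 5.9% of all loci). Lemon white1 changed by -1.13 in JI63 and 1.21 in DAN3130 on the log2 scale, a difference of -2.34 (SE 0.43, adjusted p = 0.00216). ASR9 and phytoene synthase2 differed by -5.77 (adjusted p = 0.00257) and -3.38 (adjusted p = 0.0113), where on DAP 35 in DAN3130 ASR9 had at most 0.589 normalized counts and phytoene synthase2 none. EdgeR called neither of them, and DESeq2 did not call phytoene synthase2. NCED6 differed by 4.56 (adjusted p = 0.0338), with a mean of 3.84 normalized counts on DAP 35 in JI63, and this call was lost without DAN3130 DAP 35 replicate 1, 2 or 3 or JI63 DAP 35 replicate 1 or 3 (log2 fold change 4.33 to 4.64, adjusted p = 0.0574 to 0.0821). Without DAN3130 mature replicate 3, 9 genes passed, with a variance per group none did, and without that library and JI63 DAP 35 replicate 2, 11 (8 higher and 3 lower).

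Other genes on the same routes were taken from lists of names. Of 8 tested loci of the methylerythritol phosphate pathway and its isomerases, 3 were higher and 0 lower on DAP 35 than on DAP 24 in DAN3130 and 3 higher and 1 lower in JI63, and at maturity 2 were higher and 2 lower in DAN3130 and 2 higher and 4 lower in JI63. Deoxy xylulose synthase 1, the entry enzyme, averaged 5960.3 normalized counts in mature and 826 in DAP 35 kernels of DAN3130 (log2 fold change 2.82, SE 0.30, adjusted p = 2.24e-06), and 8517 and 1804 in those of JI63 (log2 fold change 2.35, SE 0.30, adjusted p = 1.55e-05), whereas deoxy xylulose reductoisomerase1, the next enzyme, fell in DAN3130 (log2 fold change -2.18, SE 0.53, adjusted p = 0.00298), as it did in JI63 (log2 fold change -3.75, SE 0.53, adjusted p = 3.72e-05). Of 3 tested aldehyde oxidases, the family that makes ABA from its aldehyde, 2 were higher on DAP 35 than on DAP 24 in each line, and 2 in DAN3130 and 1 in JI63 were lower at maturity. Aldehyde oxidase4 averaged 9534 normalized counts on DAP 35 and 1868 on DAP 24 in DAN3130 (log2 fold change 2.32, SE 0.29, adjusted p = 0.000154). Of 10 SnRK2 kinases, the family that carries the ABA signal, 3 were higher and 4 lower at maturity in DAN3130 and 3 higher and 2 lower in JI63. Of 33 tested B3 loci of the ABI3-VP1 class, to which viviparous1 belongs, 4 were higher and 13 lower at maturity in DAN3130 and 2 higher and 10 lower in JI63. For gibberellin, which acts against ABA in germination, 1 of 7 tested 2-oxidases was higher and 4 lower at maturity in each line, and 2 of 4 tested 20- and 3-oxidases were lower in each. Over all tested loci, 4.41% were higher and 2.14% lower on DAP 35 than on DAP 24 in DAN3130 and 4.27% and 4.82% in JI63, and at maturity 19.2% were higher and 31.5% lower in DAN3130 and 17.8% and 27.8% in JI63.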

How the data were processed

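RNA-seq was analysed for 18 kernel libraries in 6 groups (2 lines at 3 stages, 3 libraries each). Per the labels and methods the authors aligned clean reads without strand information to the B73 genome v4.40 with HISAT2 2.1.0, assembled loci with Cufflinks, counted reads (HTSeq 0.11.2) and normalized them by DESeq2 size factors. Without strand, reads of a gene and of any antisense partner cannot be told apart. All 50 loci had the same strand value, and 24 had an antisense entry and 26 an overlap entry. Whether such an entry names another gene or the locus's own gene was not checked. The library kit was not given in sources used here. The deposited values are a signal, counts divided by a size factor per library. Whole reads were recovered from their steps, as 100% of values were whole within 0.1%, and libraries held 9428728 to 133264978 reads in loci. Intron entries were kept out of the tests. Bounds for groups without reads used 3 reads over the group as a floor and cover counting error only.

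Values were tested as log2(value + 1) with limma 3.58.1 (R 4.3.3) with a mean-variance trend, in a single fit of all groups, restricted to 29191 loci of mean above 10, with Benjamini-Hochberg adjustment over all of them. A gene was called at an adjusted p under 0.05, and fold changes on this scale understate the change of low genes. Alternatives were other pseudocounts, filters, scalings, fits and sample sets, each library left out in turn, and edgeR 4.0.16 and DESeq2 1.42.0 on the recovered reads. Leaving out both libraries high in embryo markers was chosen after seeing the data. The limma and edgeR code was run on simulated counts, as a check of the code alone. The genes, pathway lists and marker lists were chosen with earlier results of these data known. Values in every library are given for genes called with an absolute log2 fold change of at least 1 and a group mean of at least 100, at most 5 in each direction per comparison, and from a pathway list at most 2 called loci in each direction. Per-library values of further genes were added after their values were seen. All tests were two-sided. No sequences are printed.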

Additional observations from a re-analysis of the deposited data

Results flagged for a closer look

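Genes whose change from DAP 35 to maturity differed between the lines in a test of the difference itself (JI63 change minus DAN3130 change, limma, adjusted over 29191 loci) were NCED6 (4.56, adjusted p = 0.0338), lemon white1 (-2.34, adjusted p = 0.00216), phytoene synthase2 (-3.38, adjusted p = 0.0113) and ASR9 (-5.77, adjusted p = 0.00257). Lemon white1 was the only one of them with over 100 normalized counts in all 18 libraries. In data not used for the comparisons, 14 of the 21 members with an intron entry had more than 3 intron reads in at least 1 library, the most in viviparous8 (56 reads), yellow endosperm1 (42) and viviparous5 (38). Viviparous15, which had no read over its exons, had up to 10 in its intron entry. The intron entry of yellow endosperm1 had a mean of 4.38 normalized counts on DAP 24 in DAN3130 and 11.5 in JI63, and no read at maturity in either line.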

How the results depend on the processing

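Of the called genes, 2 of 7 (DAN3130) and 3 of 5 (JI63) by DAP 35, 11 of 24 and 16 of 28 by maturity, and 7 of 9, 4 of 11 and 0 of 9 between the lines on DAP 24, DAP 35 and in mature kernels kept their call in every alternative, and 0 of 4 line differences in the change to maturity did. Only viviparous10 turned direction, in JI63 mature over DAP 35 with equal totals (-0.42, adjusted p = 0.0971). With each library left out in turn, the number of called genes was 2 to 5 (DAN3130) and 3 to 5 (JI63) by DAP 35, 18 to 26 and 23 to 26 by maturity, 8 to 9, 5 to 9 and 7 to 14 between the lines at the 3 stages, and 0 to 1 and 3 to 9 for the 2 line differences in change. With a variance per group, counts were 14 and 13 by DAP 35, 12 by maturity in DAN3130, 21 on DAP 24 and 2 in mature kernels between the lines, and 3 and 0 for the line differences. With only the 12 immature libraries in the fit, they were 13 (DAN3130) and 11 (JI63) by DAP 35, 15 between the lines on DAP 24 and 5 for the earlier line difference. With only the groups compared, they were 8 by DAP 35 in JI63, and 16 (DAN3130) and 22 (JI63) by maturity. Between the lines they were then 17 on DAP 24, 2 in mature kernels and 5 for the earlier line difference. At the limits of the study (absolute log2 fold change of at least 1 and unadjusted p under 0.05) they were 11 by DAP 35 in JI63, 14 between the lines in mature kernels, and 2 and 9 for the line differences. DESeq2 called 10 by DAP 35 in JI63 and 2 for the earlier line difference, edgeR 1 and 2 for the line differences, the fit without trend 2 and that with pseudocount 0.5 1 for the earlier one. Without the 2 libraries high in embryo markers the count was 14 between the lines in mature kernels, and 1 and 11 for the line differences. The cause of these moves was not tested. With equal totals the members' calls between the lines in mature kernels split into 3 higher and 5 lower, the median of all loci moved to 0.16, and 60.1% of all called loci were higher in DAN3130, in place of 42%. For the later line difference the share was 37.9%, in place of 57.3%, and edgeR gave 79.2%, in place of 67.4%, by DAP 35 in DAN3130. No paired analysis was possible because the sample labels carry no replicate numbers, and the numbers used here follow the order of the samples and pair nothing. Promoter and protein sequences were not used here. The least certain values are those of genes with few reads in mature DAN3130 kernels, where the residual SD over all loci was 1.97.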
